A study of Mus musculus with 4 samples.

Results

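The nuclear genes of the respiratory chain and the ATP synthase were examined as a module of chromatin accessibility in mouse inguinal white adipose tissue (iWAT), the subcutaneous depot in which beige adipocytes form. Members were chosen by symbol and not by any measured value: protein-coding genes of the mm10 GENCODE annotation that start with Nduf, Uqcr, Atp5, or Cox followed by a digit from 4 to 8. This gave 90 of 21951 protein-coding genes, namely 38 complex I genes, 8 complex I assembly factors, 8 complex III genes, 18 complex IV genes and 18 ATP synthase genes. The complexes were assigned by the start of the symbol alone, so Ndufa4 and Ndufa4l2 count under complex I. A gene was measured through the peaks within 2 kb of its start and on its gene body, and 86 of the 90 had a peak, among 17237 genes with one. Atp5d, Cox8c, Ndufb5 and Uqcrq had none and are not described further.

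Single-nucleus ATAC-seq (snATAC-seq), in which a transposase tags open chromatin in individual nuclei, was run on whole iWAT of 21 male C57BL/6 mice aged 8 weeks, 3 in each of 7 groups. Mice of the day0RT group stayed at room temperature (22 °C). Mice of the day1C, day3C and day7C groups were kept at 6.5 °C for 1, 3 or 7 days, and mice of the day1CL, day3CL and day7CL groups received CL-316,243 (CL), an agonist of the β3-adrenergic receptor, at 1 mg/kg and room temperature for the same times. All groups share strain, sex and age, and nuclei came from whole tissue with no sort for a cell type.

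The respiratory chain passes electrons from NADH and other carriers through complex I, complex III and complex IV to oxygen and pumps protons across the inner mitochondrial membrane, and the ATP synthase makes ATP as the protons return. In thermogenic adipocytes the uncoupling protein Ucp1 lets protons return without making ATP, and these cells are known for dense mitochondria with a high capacity for respiration. Brown fat is also known for little ATP synthase relative to its respiratory chain. Several complex IV subunits exist as tissue isoforms: Cox6a2, Cox7a1 and Cox8b are the forms of heart and skeletal muscle, some of them shared with brown fat, and Cox6a1, Cox7a2 and Cox8a are the widely expressed forms.

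The deposited matrix held 189598 peaks and 32552 nuclei that the authors had assigned to 12 cell type clusters, with 1111 to 2021 nuclei and 1340376 to 6916698 counts per mouse. Each entry is 1 where a nucleus had a read in a peak, so a count is a number of nuclei, and entries were summed over the nuclei of each mouse and cluster to give libraries. In all, 4218 barcodes were used by more than 1 mouse, and nuclei were therefore identified by barcode and mouse together. The adipocyte marker list (9 genes) reached 2197 ± 319 CPM (entries in its peaks per 1000000 entries of the library) in white adipocytes (SD, n = 21) and 2015 ± 237 in beige adipocytes (n = 19), against 258 ± 23.3 in B cells (n = 21). The beige marker list (7 genes) reached 859 ± 72.0 in white and 1583 ± 245 in beige adipocytes. The cluster annotated as vascular smooth muscle cells (VSMCs) went against its label: its skeletal muscle marker list reached 1711 ± 254 CPM, against 123 ± 16.7 in white adipocytes, whereas its smooth muscle list reached 319 ± 85.2, below the 465 ± 66.6 of the progenitor cluster APC2. Its adipocyte list reached 1045 ± 373 and its beige list 983 ± 202, against 258 ± 23.3 and 269 ± 29.4 in B cells. This cluster is called the VSMC cluster here.

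Member genes had 239 of the 189598 peaks, 105 of them within 2 kb of a member's gene start, and 82 members had such a promoter peak. Most members offered little sequence to measure. A total of 42 members had 1 peak and 35 had 2 or 3, with a median peak width of 468 bases against 393 for all peaks. For 39 members at least 1 peak also counted for another gene, which leaves their value uncertain. A second and much longer model of Atp5o (ENSMUSG00000116933, called the long model) carried 61 of the 239 peaks, 60 of them shared with other genes, and it says little about Atp5o itself.

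Promoter levels were compared between genes per kb of peak in the 21 white adipocyte libraries. The 5 highest were Atp5b, which encodes the catalytic beta subunit of the ATP synthase, at 42.5 ± 9.92 CPM per kb (SD), Ndufs7 at 42.0 ± 11.6, Cox8a at 41.4 ± 11.7, Ndufaf8 at 36.9 ± 12 and Atp5s at 34.7 ± 5.62. Neighbours in this order differed by less than their SDs. Among the 5 lowest of the 82 were Ndufa1 at 7.63 ± 4.24, Cox6b2 at 7.34 ± 6.06, Cox6a2 at 6.42 ± 5.09 and Ndufs8 at 4.64 ± 4.24. Of these, Cox6b2 and Cox6a2 are the testis and the muscle forms of their subunits. Ndufs8, which encodes a core complex I subunit, had a single promoter peak of 232 bases.

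The 4 stretches of member peaks shown here were higher in beige than in white adipocytes, and they are printed so that the letters can be read beside the values given further on. All are from GRCm38.p6, the assembly also called mm10, and are written 5′ to 3′ on the strand of the gene. The first is the central 300 bases of the peak inside Atp5g3 (chr2:73909159-73909458, minus strand), where the capitals mark an extended nuclear receptor element (AAGGTCA), here on the opposite strand at positions 54 to 60. The second is the whole peak upstream of Atp5j (chr16:84836149-84836440, minus strand), where the capitals mark an element of the form bound by estrogen-related receptors (TCAAGGTCA, positions 49 to 57) and a palindrome that holds the NRF1 core (GCGCATGC) on both strands (positions 119 to 126 and 121 to 128). The remaining ones come from the promoter peaks of Cox8b (chr7:140900447-140900593, minus strand), with the bases of the peak that lie before the gene start, and of Cox7a1 (chr7:30183894-30184143, plus strand), with the last 250 of them, and they have no capitals because none of the 6 motifs searched was in them.
Atp5g3 peak: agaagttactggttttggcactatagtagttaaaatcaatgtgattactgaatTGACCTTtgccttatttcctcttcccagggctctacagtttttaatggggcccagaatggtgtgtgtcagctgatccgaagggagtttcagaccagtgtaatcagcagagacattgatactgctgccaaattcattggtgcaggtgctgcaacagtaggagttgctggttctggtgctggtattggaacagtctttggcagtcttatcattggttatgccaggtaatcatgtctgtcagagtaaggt
Atp5j peak: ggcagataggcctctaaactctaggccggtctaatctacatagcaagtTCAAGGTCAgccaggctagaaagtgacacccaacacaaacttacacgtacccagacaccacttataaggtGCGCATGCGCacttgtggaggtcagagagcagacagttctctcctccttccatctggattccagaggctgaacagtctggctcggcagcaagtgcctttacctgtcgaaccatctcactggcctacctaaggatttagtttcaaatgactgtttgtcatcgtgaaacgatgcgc
Cox8b promoter: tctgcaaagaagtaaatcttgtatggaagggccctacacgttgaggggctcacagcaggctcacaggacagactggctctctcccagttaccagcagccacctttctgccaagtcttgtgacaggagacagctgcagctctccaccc
Cox7a1 promoter: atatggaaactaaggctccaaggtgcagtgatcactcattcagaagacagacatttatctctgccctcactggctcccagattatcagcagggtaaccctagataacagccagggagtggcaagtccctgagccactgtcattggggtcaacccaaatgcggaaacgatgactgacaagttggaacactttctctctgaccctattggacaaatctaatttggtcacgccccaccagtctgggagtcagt
Repeat masking of the assembly covered 127 of the 292 bases of the Atp5j peak, all 9 bases of its TCAAGGTCA match among them. The Atp5g3 stretch overlaps a coding exon of the gene.

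Between beige and white adipocytes, member genes were higher in beige adipocytes or not called, and none was lower. At an adjusted p under 0.05 (edgeR quasi-likelihood test, Benjamini-Hochberg over all genes tested, 19 beige against 21 white libraries), 21 of the 82 members tested were higher (25.6%) against 13.6% of all 12781 genes tested, and 0 members were lower against 15.2% of all genes. The median log2 change was 0.21 over the members and 0.01 over all genes, and it was positive for 74 of 82 members and for 6505 of 12781 genes. Without a correction 33 members had p under 0.05, and DESeq2 called 17, again with 0 lower. ATP synthase and complex IV genes carried most of the calls, with 8 of 17 and 7 of 15 tested members higher, against 4 of 35 for complex I, 2 of 7 for complex III and 0 of 8 for the complex I assembly factors, whose log2 changes lay between -0.02 and 0.17. Since these counts also served to define the clusters, the tests are not independent of the clustering. Without the day3C libraries 13 members were called, and 13 to 21 over the omission of each group in turn.

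**Figure D1:**
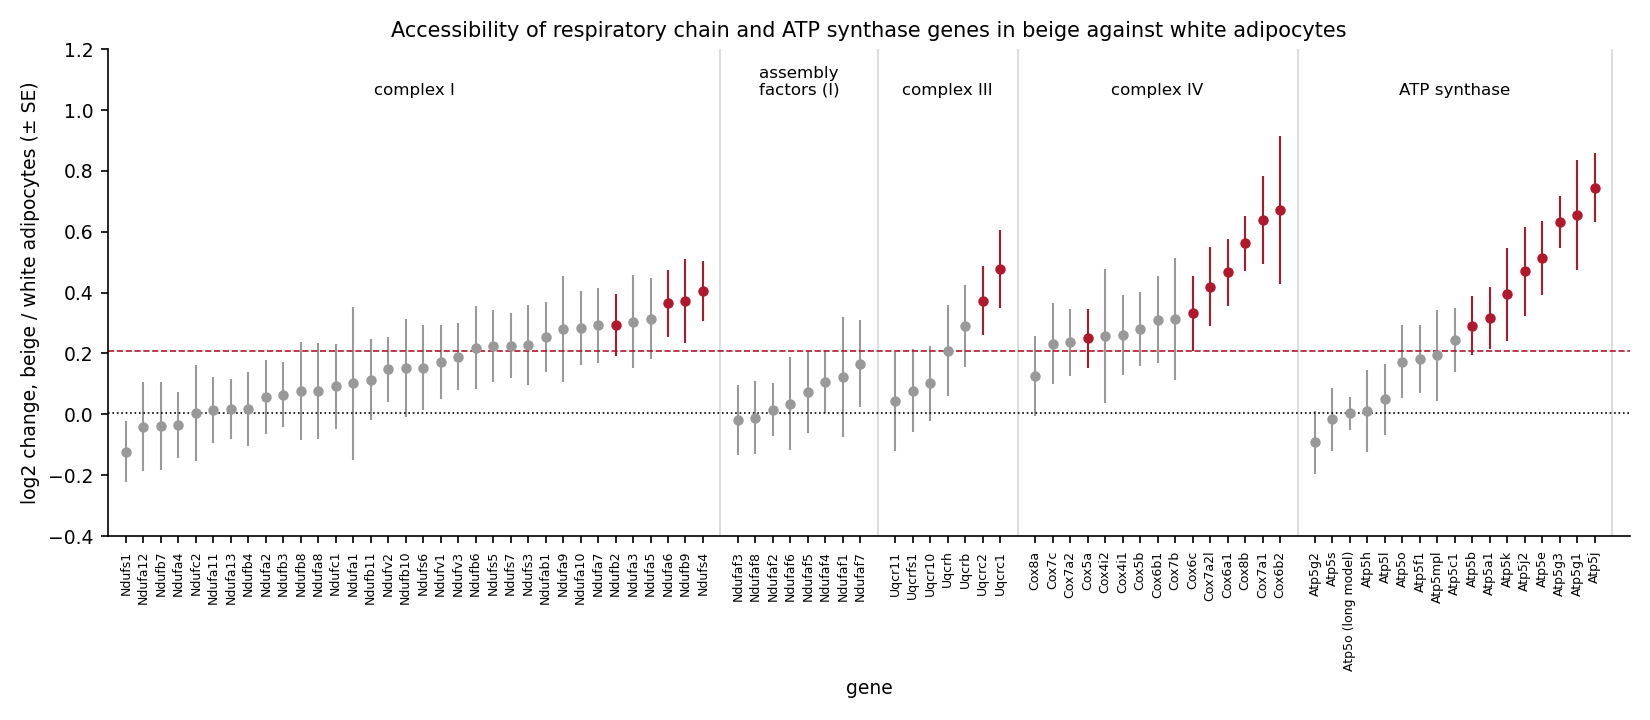
Log2 change of accessibility in beige against white adipocytes (± SE) for 81 of the 82 member genes tested, grouped by complex and sorted within each. Red points passed an adjusted p of 0.05 and grey points did not; the dashed red line is the median of the members (0.21) and the dotted black line the median of all 12781 genes (0.01).

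Summed over all members, the long Atp5o model included, the levels were compared within each mouse. In each of the 19 mice with both libraries the members took a larger part of the counts in beige than in white adipocytes, by a log2 ratio of 0.11 to 0.39 with a median of 0.23. The share of counts in promoter peaks moved with it and was higher in beige adipocytes in 15 of the 19 mice, with a median difference of 0.824 percentage points, and beige nuclei had a median of 3087 counts against 2561 in white. Their part in the result was not tested. Counted over promoter peaks alone, 9 of 76 members were higher against 5.23% of all genes. Counted over gene bodies beyond 2 kb alone, 7 of 14 were higher against 20.6%, and over peaks that belong to 1 gene alone, 17 of 52 against 15.6%.

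Among the ATP synthase genes, Atp5j (coupling factor 6, in the stalk) had 17.9 CPM in the lowest, 28.3 in the median and 41.1 in the highest white library of the 19 paired mice, and 38.0, 47.1 and 113 in beige adipocytes. It was higher in beige adipocytes in 18 of 19 mice, and the ranges overlapped between 38.0 and 41.1 (log2 change 0.75 ± 0.11 SE, adjusted p = 3.5e-08 by edgeR). Its peaks at chr16:84832812-84833073 and chr16:84836149-84836440 also count for the neighbouring gene Gabpa. Over unshared peaks alone the change of Atp5j was 0.52 ± 0.21 (edgeR adjusted p = 0.048). Atp5g3, one of the 3 genes for the membrane ring subunit c, went from 39.0, 55.3 and 67.3 to 51.2, 86.4 and 128, higher in 17 of 19 mice (0.63 ± 0.09, adjusted p = 1.1e-09). Its sister gene Atp5g1, the one known to limit ATP synthase content in brown fat, is named after its values were seen because its mean count of 10.9 is under the minimum set for naming. It went from 2.30, 13.2 and 22.2 to 0, 25.2 and 51.2, higher in 16 of 19 mice (0.65 ± 0.18, adjusted p = 0.0027). The remaining subunit c gene, Atp5g2, was not called at -0.09 ± 0.10. Atp5e (epsilon subunit, in the stalk) rose from 18.8, 28.9 and 42.8 to 20.9, 46.4 and 73.5, higher in 17 of 19 mice (0.51 ± 0.12, adjusted p = 0.0004). The other 4 called members of the complex, Atp5j2, Atp5k, Atp5a1 and Atp5b, had changes of 0.29 to 0.47.

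In complex IV, the muscle and brown fat form Cox8b had 36.2, 55.5 and 71.2 CPM in the lowest, median and highest white library and 50.4, 85.8 and 119 in beige adipocytes. It was higher in 18 of 19 mice (0.56 ± 0.09, adjusted p = 1.3e-07 by edgeR), whereas its widely expressed counterpart Cox8a went from 16.2, 34.8 and 54.0 to 20.6, 42.0 and 153 and was not called (0.12 ± 0.13). Cox7a1 went from 13.5, 21.5 and 34.5 to 0, 32.4 and 67.2, higher in 14 of 19 mice (0.64 ± 0.15, adjusted p = 0.00022), and its counterpart Cox7a2 was not called at 0.24 ± 0.11, although it was higher in 16 of 19 mice. The difference between the forms of a pair was not tested. In the remaining pair it was the widely expressed form that was called: Cox6a1 went from 26.4, 35.5 and 59.7 to 0, 48.6 and 81.0 (0.47 ± 0.11, adjusted p = 0.00031), and Cox6a2 was too low to be tested. Cox7a2l went from 16.6, 27.8 and 41.3 to 0, 41.6 and 81.7 (0.42 ± 0.13, adjusted p = 0.008). Cox6b2 was called at 0.67 ± 0.24 on a mean of 6.70 counts and with a higher value in 12 of 19 mice, and it was not called without day7CL (0.57, edgeR adjusted p = 0.135). Values of the other isoform genes were 0.26 ± 0.13 for Cox4i1, 0.26 ± 0.22 for Cox4i2, 0.31 ± 0.14 for Cox6b1, 0.31 ± 0.20 for Cox7b and -0.04 ± 0.11 for Ndufa4, and none of these passed the test. A value of 0 in beige adipocytes comes from shallow libraries, of which the smallest used held 12 nuclei and 19550 counts. Since 1 entry in that library is 51.2 CPM, the highest beige values, such as the 153 of Cox8a, can also rest on few nuclei.

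**Figure D2:**
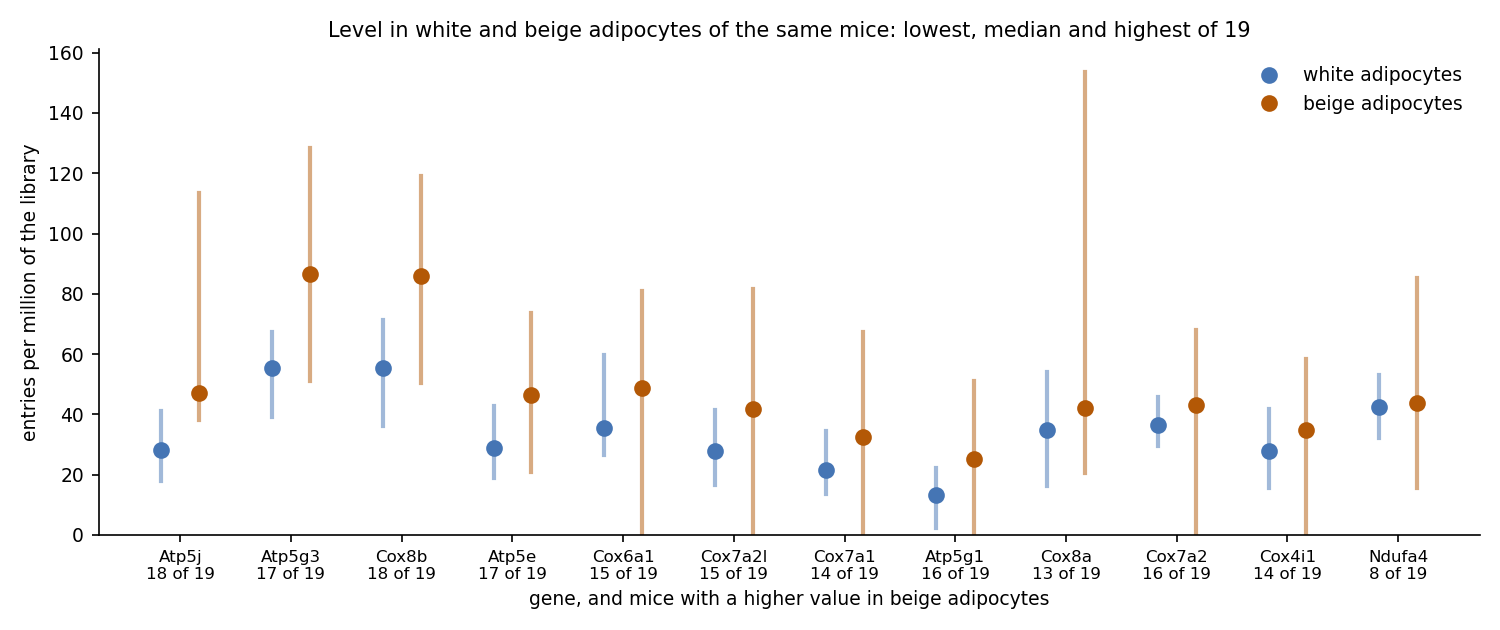
CPM for 12 members in white (blue) and beige (orange) adipocytes of the same 19 mice; points are medians and lines run from the lowest to the highest mouse. Under each gene stands the number of mice with a higher value in beige adipocytes, from 18 for Atp5j and Cox8b to 8 for Ndufa4.

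In complex III, both core proteins were called, Uqcrc1 at 0.48 ± 0.13 and Uqcrc2 at 0.37 ± 0.11, and the log2 change of all 7 members tested was positive. In complex I the called genes were the accessory subunits Ndufs4 (0.40 ± 0.10), Ndufb9 (0.37 ± 0.14), Ndufa6 (0.36 ± 0.11) and Ndufb2 (0.29 ± 0.10). The core subunit Ndufs1 had the lowest change of all members, -0.12 ± 0.10.

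Few single member peaks passed the test. Of 105 member peaks tested 12 were higher in beige adipocytes (11.4%), near the 12.8% of all 24854 peaks tested, so the share alone is not a result about the members, and 0 were lower against 14.4% of all peaks (edgeR, 19 member peaks with unadjusted p under 0.05; DESeq2 called 14 higher and 0 lower). With the mouse as a block 2 member peaks were lower, and 1 was with libraries of at least 30 nuclei. Among peaks that cover a gene start, 4 of 71 member peaks were higher (5.63%) and 0 lower, against 3.53% higher and 7.94% lower of all 7243 such peaks. Among those that do not, peaks of the long Atp5o model included, 8 of 34 were higher (23.5%), against 16.6% of 17611. Member peaks were classed by the start of the member and all peaks by the start of any gene, so the classes are not quite alike. Leaving out the day3C or the day7C libraries left 5 member peaks called in each case.

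The largest difference lay within Atp5g1, in a peak at chr11:96070353-96070733 that overlaps an exon and untranslated sequence 5127 bases into the gene. It had 0, 4.10 and 9.69 CPM in the lowest, median and highest white library and 0, 14.4 and 30.9 in beige adipocytes, higher in 16 of 19 mice (1.62 ± 0.28, adjusted p = 1.6e-07 by edgeR). The other Atp5g1 peak, upstream of the gene start, had 10.7 ± 8.73 in white and 10.6 ± 13.2 in beige adipocytes. Its fitted change was negative (-0.44 ± 0.28) and was not called. The peak over the Cox8b gene start (chr7:140900186-140900593), of which the upstream part is printed above, went from 0, 7.81 and 13.6 to 0, 19 and 48.6, higher in 18 of 19 mice (1.13 ± 0.21, adjusted p = 2.8e-06). A wider peak 2370 bases upstream of Cox8b (chr7:140902018-140903615) changed by 0.40 ± 0.11 and was higher in 16 of 19 mice. The printed exon peak of Atp5g3 (chr2:73909144-73909473) went from 2.95, 8.06 and 19.2 to 0, 17.9 and 58.3 (1.06 ± 0.20, adjusted p = 4.4e-06), although in only 13 of 19 mice, and the peak over the gene start (chr2:73910312-73911753) changed by 0.39 ± 0.10 in 18 of 19 mice. The printed Atp5j peak lies 669 bases upstream, inside the neighbouring gene Gabpa, for which it also counts. It went from 4.48, 8.78 and 20.7 to 0, 19.6 and 51.2, higher in 15 of 19 mice (0.88 ± 0.22, adjusted p = 0.00045).

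Of the other called peaks, those of Cox7a1 (chr7:30183815-30184692, 0.54 ± 0.14, 14 of 19 mice) and Atp5e (chr2:174463371-174464540, 0.40 ± 0.12, 17 of 19 mice) cover the gene start. The remaining 4 lay in an intron of Cox6a1 (chr5:115347600-115348067, 0.71 ± 0.23), in an intron of Atp5j (chr16:84832812-84833073, 0.62 ± 0.23), 957 bases upstream of Atp5b within the neighbouring Gm47438 (chr10:128082150-128082483, 0.69 ± 0.23) and 821 bases into Atp5j2 (chr5:145190542-145191940, 0.38 ± 0.14). The Atp5j intron peak also counts for Gabpa. The Atp5j2 peak lost its call with the mouse as a block (0.30, adjusted p = 0.087).

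**Figure D3:**
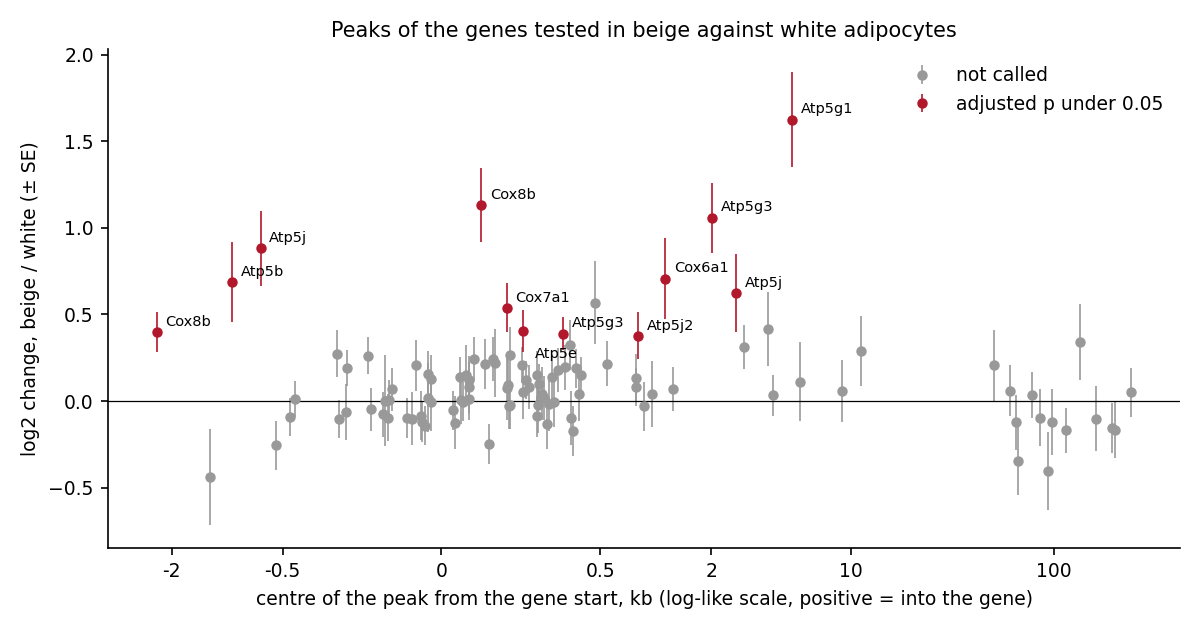
Log2 change in beige against white adipocytes (± SE) of the 105 member peaks tested, against the distance of the peak's centre from the gene start in kb (logarithmic away from 0, positive into the gene). The 12 called peaks, in red and named by gene, run from 0.38 for Atp5j2 to 1.62 for Atp5g1, and grey peaks near the gene start lie around 0.

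The letters of these windows were searched for 6 motifs on both strands. AAGGTCA was in 9 of 90 member promoters (10.0%, from 250 bases before to 50 after the gene start) against 4.16% of 21938 promoters, and the NRF1 core GCGCATGC was in 9 (10.0%) against 3.71%. TCAAGGTCA, which contains AAGGTCA, was in 1 (1.11%) against 0.474%, the ETS element CCGGAAGT in 6 (6.67%) against 4.7%, the YY1 element AAGATGGCG in 4 (4.44%) against 1.7%, and the cAMP response element TGACGTCA in 4 (4.44%) against 2.43%. In the central 300 bases of peaks, AAGGTCA was in 4 of the 12 called member peaks (33.3%) and in 18 of 105 tested ones (17.1%), against 18.7% of all 3180 peaks higher in beige adipocytes and 7.49% of all peaks tested. The NRF1 core was in 1 of the 12 and in 0.818% of all peaks higher in beige adipocytes. These matches are descriptions of letters and not of bound sites.

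Of 50 other respiratory chain genes 43 were tested, 11 were higher in beige adipocytes and 1 was lower, against 13.6% and 15.2% of all genes, with a median of 0.14. Ucp1, an uncoupling protein that was counted on this list, had the largest change (2.87 ± 0.21, edgeR adjusted p = 4.2e-24). The paper names Ucp1 and, of the regulators below, Ppargc1b among the top genes enriched in its beige cluster. Their rise is therefore not independent of that annotation. All 4 subunit genes of complex II, Sdhc (0.55 ± 0.11), Sdhd (0.49 ± 0.10), Sdha (0.32 ± 0.11) and Sdhb (0.30 ± 0.08), were higher, as were the complex IV copper and heme factors Sco2 (0.65 ± 0.12), Cox17 (0.49 ± 0.11) and Cox10 (0.32 ± 0.07), and Coa4, Etfb and Lyrm7 at 0.39 to 0.50. Atpaf1, an assembly factor of the ATP synthase, fell by 0.45 ± 0.14. Of 15 regulators of nuclear respiratory genes 8 were higher and 0 lower. They were Gabpa (0.91 ± 0.14, which shares peaks with Atp5j), Ppara (0.80 ± 0.08), Esrrg (0.67 ± 0.06), Ppargc1b (0.65 ± 0.06), Ppargc1a (0.63 ± 0.09), Esrrb (0.44 ± 0.10), Tfb2m (0.30 ± 0.09) and Nrf1 (0.27 ± 0.07).

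Across the 12 annotated cell types, most of the named members had counts in every type, and a few had low levels in most types. Summed over members, levels ran from 2907 ± 208 CPM in APC2 (n = 19) and 3261 ± 165 in white adipocytes (n = 21) through 3806 ± 315 in beige adipocytes (n = 19) to 4271 ± 210 in B cells (n = 21) and 4563 ± 315 in the VSMC cluster (n = 10). These sums include the long Atp5o model. It had 303 ± 92.1 in APC2, 458 ± 51.3 in white and 494 ± 74.2 in beige adipocytes. In B cells it had 203 ± 24.1 and in the VSMC cluster 478 ± 163. The share of all counts in promoter peaks moved with the order of the sums only in part, with medians of 31.5% in APC2, 27.2% in white and 28.1% in beige adipocytes, 43.8% in B cells and 35.8% in the VSMC cluster, and its part was not tested.

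The tissue forms had unequal levels across cell types. Cox8b had 87.2 ± 20.9 CPM in beige adipocytes, 68.7 ± 39.2 in the VSMC cluster and 56.1 ± 8.46 in white adipocytes, and between 4.22 ± 11.5 and 12.7 ± 22.7 in the 9 others, which do not differ beyond their spread. Cox7a1 had 53.6 ± 40.4 in the VSMC cluster, 32.5 ± 16.8 in beige adipocytes, 26.0 ± 19.6 in APC1, 25.8 ± 20.0 in macrophages, 21.3 ± 7.49 in white adipocytes, 13.0 ± 4.58 in B cells and 7.30 ± 4.96 in Cd8 T cells. Cox6a2 had 27.8 ± 30.3 in the VSMC cluster and 3.37 ± 9.95 to 11.9 ± 12.9 elsewhere. Their widely expressed counterparts spanned a smaller range relative to their level, and each had its highest mean in a lymphocyte cluster. Cox8a ran from 34.5 ± 41.5 in vascular endothelial cells to 62.0 ± 12 in B cells, Cox7a2 from 34.2 ± 19 in APC2 to 61.0 ± 18.1 in Cd8 T cells, and Cox6a1 from 29.7 ± 18.5 in APC2 to 67.0 ± 29.9 in T cells.

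The ATP synthase members named here followed either pattern, but through unlike peaks. Atp5j, which shares peaks with Gabpa, had 58.4 ± 57.6 CPM in the VSMC cluster, 54.3 ± 21.2 in beige and 27.8 ± 6.94 in white adipocytes, and 4.49 ± 8.86 to 13.8 ± 16.7 in the others. Atp5g1 had 25.2 ± 11.7 in beige adipocytes, 15.6 ± 32.0 in vascular endothelial cells, 14.4 ± 8.64 in white adipocytes, 12.9 ± 18.8 in the VSMC cluster and 11.8 ± 29.5 in APC1, and 0 in APC2 to 3.55 ± 5.60 in the others. No peak of Atp5j or Atp5g1 covers the gene start, so their values do not show how open the start was. Atp5g3, in contrast, had 86.5 ± 24.7 in beige and 59.6 ± 14.1 in white adipocytes but also 50.3 ± 14.0 in B cells. Its peak over the gene start had 50.9 ± 15.7 in white adipocytes and 49.5 ± 13.9 in B cells. The exon peak of Atp5g3 had 8.66 ± 4.69 in white adipocytes and 0.823 ± 1.05 in B cells. Among the other isoform genes, Cox4i2, a form induced by low oxygen, had 13.2 ± 9.65 in beige adipocytes, 11.5 ± 4.44 in white adipocytes, 10.9 ± 12 in macrophages, 10.1 ± 18.6 in the VSMC cluster and 1.43 ± 1.82 in B cells, whereas Cox4i1 had 26.6 ± 8.52 in white adipocytes and 47.0 ± 9.93 in B cells. Ndufa4l2 had 8.83 ± 5.05 in white adipocytes and 21.2 ± 9.25 in B cells, and Cox7b2, a testis form, did not exceed 6.48 ± 11.9 in any type.

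**Figure D4:**
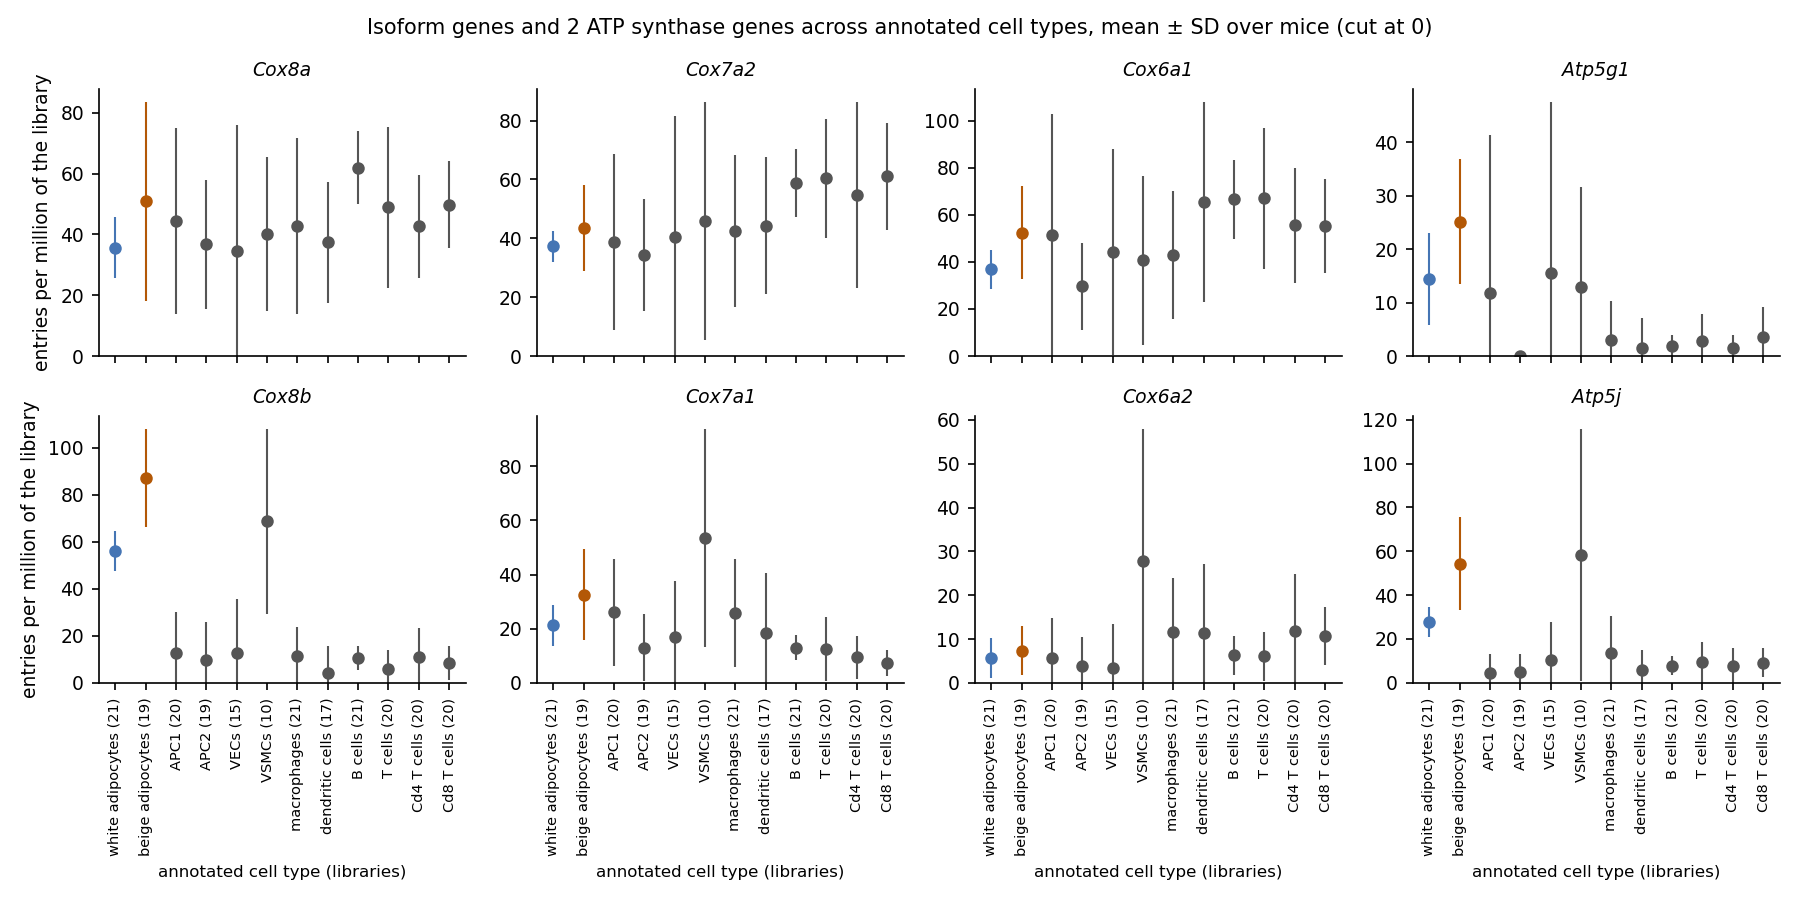
CPM in the 12 annotated cell types (libraries in parentheses; points are means and lines SDs over mice, cut at 0) for the widely expressed forms Cox8a, Cox7a2 and Cox6a1, their tissue forms Cox8b, Cox7a1 and Cox6a2, and the ATP synthase genes Atp5g1 and Atp5j. White adipocytes are blue and beige adipocytes orange; Cox8b is at 56.1 and 87.2 there and at 68.7 in the VSMC cluster, and at or under 12.7 in the other types.

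Against white adipocytes, 13 of 83 members tested were higher in the VSMC cluster (15.7%), near the 15.2% of all 13533 genes, and 3 were lower against 28.8% of all genes. The share of members that were higher is not a result about the members. The median was 0.17 over the members and -0.12 over all genes, and the split moved with the scaling: DESeq2 gave 8 higher and 5 lower (median of all genes -0.25), and total counts in place of TMM gave 20 higher and 0 lower (0.09). The cluster held 10 libraries of 10 to 57 nuclei, with none from day0RT or day1C. Without day3C 8 members were called, and 10 without day7C.

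The largest differences in the VSMC cluster included Cox6a2 and Atp5k. Cox6a2 was 2.42 ± 0.42 higher on the log2 scale (edgeR adjusted p = 1.5e-07), on a mean of 4.68 counts. Its peak over the gene start (chr7:128206255-128206555, shared with Itgad) had 20.5 ± 23.1 CPM against 1.72 ± 4.91 in white adipocytes. Atp5k (subunit e, named after its values were seen because its mean count was 17) was 1.43 ± 0.27 higher, and a peak centred -1868 bases from its start (chr5:108436167-108436465) had 41.8 ± 30.0 against 0.527 ± 1.15. The gene Atp5b was 0.83 ± 0.19 higher, and the peak over its start had 113 ± 66.5 against 41.9 ± 8.23. Further members that rose were Uqcrc1 (0.98 ± 0.26), Cox7a1 (0.97 ± 0.28), Ndufa5 (0.97 ± 0.25), Ndufb9 (0.71 ± 0.28) and Atp5e (0.71 ± 0.26), of which Ndufb9 lost its call with the mouse as a block (0.65, adjusted p = 0.059). Ndufb3 fell by 0.74 ± 0.27, Ndufaf4 by 0.69 ± 0.28 and the long Atp5o model by 0.42 ± 0.12, and these calls were lost with total counts in place of TMM. Cox8b was not called (-0.15 ± 0.23). The skeletal muscle marker list moved with these genes, as given above. The cluster also had adipocyte and beige marker levels above those of B cells. Muscle and adipocyte signal cannot be told apart in these libraries, and the part of each in the result was not tested.

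White adipocytes against B cells is the comparison in which most genes differed. Of 81 members tested 11 were higher in white adipocytes against 38.6% of all 13850 genes, and 63 were lower against 53.6%. The median was -0.61 over the members and -0.30 over all genes, against which the single values below should be read. The balance depended on the scaling and on the peaks counted: DESeq2 gave 21 higher and 40 lower with a median of all genes of 0.13, and promoter peaks alone gave 29 higher and 17 lower of 79, with medians of 0.03 over the members and -0.03 over all genes. Nuclei with at least 2000 counts gave 21 higher and 31 lower of 81, with medians of -0.12 over the members and 0.15 over all genes. White adipocyte nuclei had a median of 2561 counts and B cell nuclei 974. The share of counts in promoter peaks, 27.2% in white adipocytes and 43.8% in B cells, also moved with the comparison. The parts of depth and of this share were not tested.

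Among the members higher in white adipocytes, Cox8b was 2.59 ± 0.11 higher on the log2 scale, Atp5j 2.19 ± 0.14, the long Atp5o model 1.32 ± 0.05, Ndufs4 0.89 ± 0.08 and Cox7a1 0.81 ± 0.12 (edgeR adjusted p = 3.2e-09 for Cox7a1, and smaller for the others). The Atp5j value includes peaks shared with Gabpa. Atp5g1, with a mean of 8.76 counts and named after its values were seen, was 2.75 ± 0.22 higher. Neither Atp5j nor Atp5g1 has a peak over its gene start. Ndufaf4 (0.42 ± 0.08) and Cox6c (0.37 ± 0.10) were also higher, but Cox6c turned to -0.15 when shared peaks were left out. Among members with a mean of at least 20 counts, those lowest in white adipocytes were Cox7c (-1.24 ± 0.07), Atp5e (-1.05 ± 0.07), Ndufaf7 (-1.03 ± 0.08), Ndufa11 (-1.02 ± 0.06), Ndufb11 (-1.02 ± 0.08) and Cox7a2l (-0.97 ± 0.08). Of the isoform genes, Ndufa4l2 (-1.27 ± 0.14), Cox6a1 (-0.79 ± 0.08), Cox8a (-0.76 ± 0.08), Ndufa4 (-0.71 ± 0.07), Cox4i1 (-0.71 ± 0.08), Cox7a2 (-0.60 ± 0.07), Cox7b (-0.50 ± 0.12) and Cox6b1 (-0.35 ± 0.10) were lower too.

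Treatment moved few members within adipocytes, in which the white and beige nuclei of a mouse were summed and 83 members were among 14443 genes tested. Against day0RT (edgeR, adjusted p under 0.05, either direction), 0 members were called at day1C against 0.339% of all genes, 0 at day3C against 1.68%, 1 at day7C against 5.04%, 0 at day1CL against 2.61%, 2 at day3CL against 4.77% and 4 at day7CL against 7.78%. Between CL and cold at the same day, 0 members were called at day 1 against 0.9% of all genes, 0 at day 3 against 1.44% and 0 at day 7 against 0.111%, and across the 7 groups 2 members were called against 13.7%. At an unadjusted p under 0.05 these 10 comparisons held 5 to 13 members each. DESeq2 called 0 members in every one of them, and so did counting over promoter peaks alone, so no treatment call below holds under these alternatives. The comparisons with day0RT share its 3 mice. Per the paper, these were taken before any intervention, and none of the 7 groups received vehicle or stayed at room temperature for matched days. Treatment therefore cannot be told apart from handling or elapsed time in these comparisons.

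Ndufb11, an accessory subunit of complex I on chromosome X, had 43.2, 33.5 and 35.6 CPM in the day0RT mice, 24.3, 21.4 and 24.2 at day3CL and 22.5, 18.6 and 18.9 at day7CL. Neither of these groups overlapped day0RT, and the gene fell by 0.68 ± 0.20 at day3CL (edgeR adjusted p = 0.032) and by 0.77 ± 0.21 at day7CL (adjusted p = 0.011). It also lay below the day0RT mice at day7C (25.9 to 31.2) and day1CL (24.3 to 32.1), where it was not called. Ndufa13, another accessory subunit, had 88.1, 78.2 and 71.2 in day0RT mice and 51.8, 50.8 and 60.4 at day7CL, again without overlap, and fell by 0.49 ± 0.15 (adjusted p = 0.024). It also lay below the day0RT mice at day3C (48.1 to 66.4) and day7C (52.1 to 59.9). The same held at day1CL (44.2 to 54.7) and day3CL (53.0 to 66.1), and none of these was called. These 2 genes were also the ones called across the 7 groups. Cox8a had 48.2, 58.6 and 42.0 in day0RT mice and 21, 38.9 and 28.1 at day7C, without overlap, and fell by 0.70 ± 0.22 (adjusted p = 0.041). It also lay below the day0RT mice at day3CL (27.7 to 34.8), where it was not called.

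The 2 members that rose with all mice and nuclei were called at day7CL, and neither was called in white nuclei alone. Cox6c had 18.3, 25.1 and 25.6 CPM in day0RT mice and 37.3, 33.9 and 37.9 at day7CL, without overlap (0.70 ± 0.22, edgeR adjusted p = 0.032), and Ndufs4 had 46.5, 39.1 and 42.0 against 64.7, 58.1 and 49.7 (0.55 ± 0.18, adjusted p = 0.037). Cox6c also lay above the day0RT mice at day1C (29.3 to 40.0), day3C (27.1 to 36.1), day7C (28.3 to 37.4) and day3CL (29.7 to 43.5). Ndufs4 did so at day3C (50.7 to 63.8), day7C (53.7 to 76.6) and day3CL (51.8 to 68.3). With all mice and nuclei, neither gene was called in those groups. In white nuclei alone the day7CL changes were 0.58 for Cox6c (edgeR adjusted p = 0.116) and 0.47 for Ndufs4 (adjusted p = 0.126), whereas Ndufb11 and Ndufa13 were still called at -0.79 and -0.54. With all nuclei, the genes that led the beige comparison did not pass the test in any treatment comparison. Atp5j had 28.3, 25.1 and 22.8 in day0RT mice and 35.7, 40.4 and 28.4 at day7CL. It lay above the day0RT mice also at day1C (37.7, 44.0 and 37.1) and day3CL (33.0, 35.6 and 41.3). In white nuclei alone Atp5j was called at day3CL (0.71, edgeR adjusted p = 0.044). Cox8b had 68.1, 50.2 and 51.1 in day0RT mice and 57.7, 54.1 and 63.9 at day7CL. The share of counts in promoter peaks moved with treatment, from 28.4 to 31.3% in day0RT mice to 25.0 to 26.4% in day7CL mice, and the summed lymphocyte marker list (12 genes) ranged from 165 to 244 CPM at day0RT, 130 to 154 at day7C and 188 to 203 at day7CL, with no marker at 0 in white adipocytes. Of 9 adipocyte markers 7 fell at day7C, 5 at day3CL and 6 at day7CL, where 1 rose in each CL group. Of 7 beige markers 4 rose at day7C and 4 at day7CL, and beige nuclei went from 12 to 24 per mouse at day0RT to 85 to 98 at day7C and 46 to 107 at day7CL. Their part in these results was not tested.

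The treatment calls also rested on single mice. At day7CL the 4 calls became 0 without day0RT mouse 1, 2 without day0RT mouse 2, 1 without day0RT mouse 3, 1 without day7CL mouse 1 and 7 without day7CL mouse 3. At day3CL the 2 calls became 0 without day0RT mouse 1 or 3 or day3CL mouse 2 and 4 without day3CL mouse 1. The Cox8a call at day7C was lost when any of the 3 day0RT mice, day7C mouse 1 or day7C mouse 3 was left out, and without the last of these Ndufs4 was called as higher (0.68, edgeR adjusted p = 0.037). The 2 calls across the groups became 0 without day0RT mouse 1 or day1C mouse 1, 1 without day0RT mouse 2 or 3, day1C mouse 2 or day7CL mouse 2, 4 without day1CL mouse 3 and 5 without day7CL mouse 3. The day1CL group is thin, with 29 and 68 adipocyte nuclei in its mice 1 and 2.

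**Figure D5:**
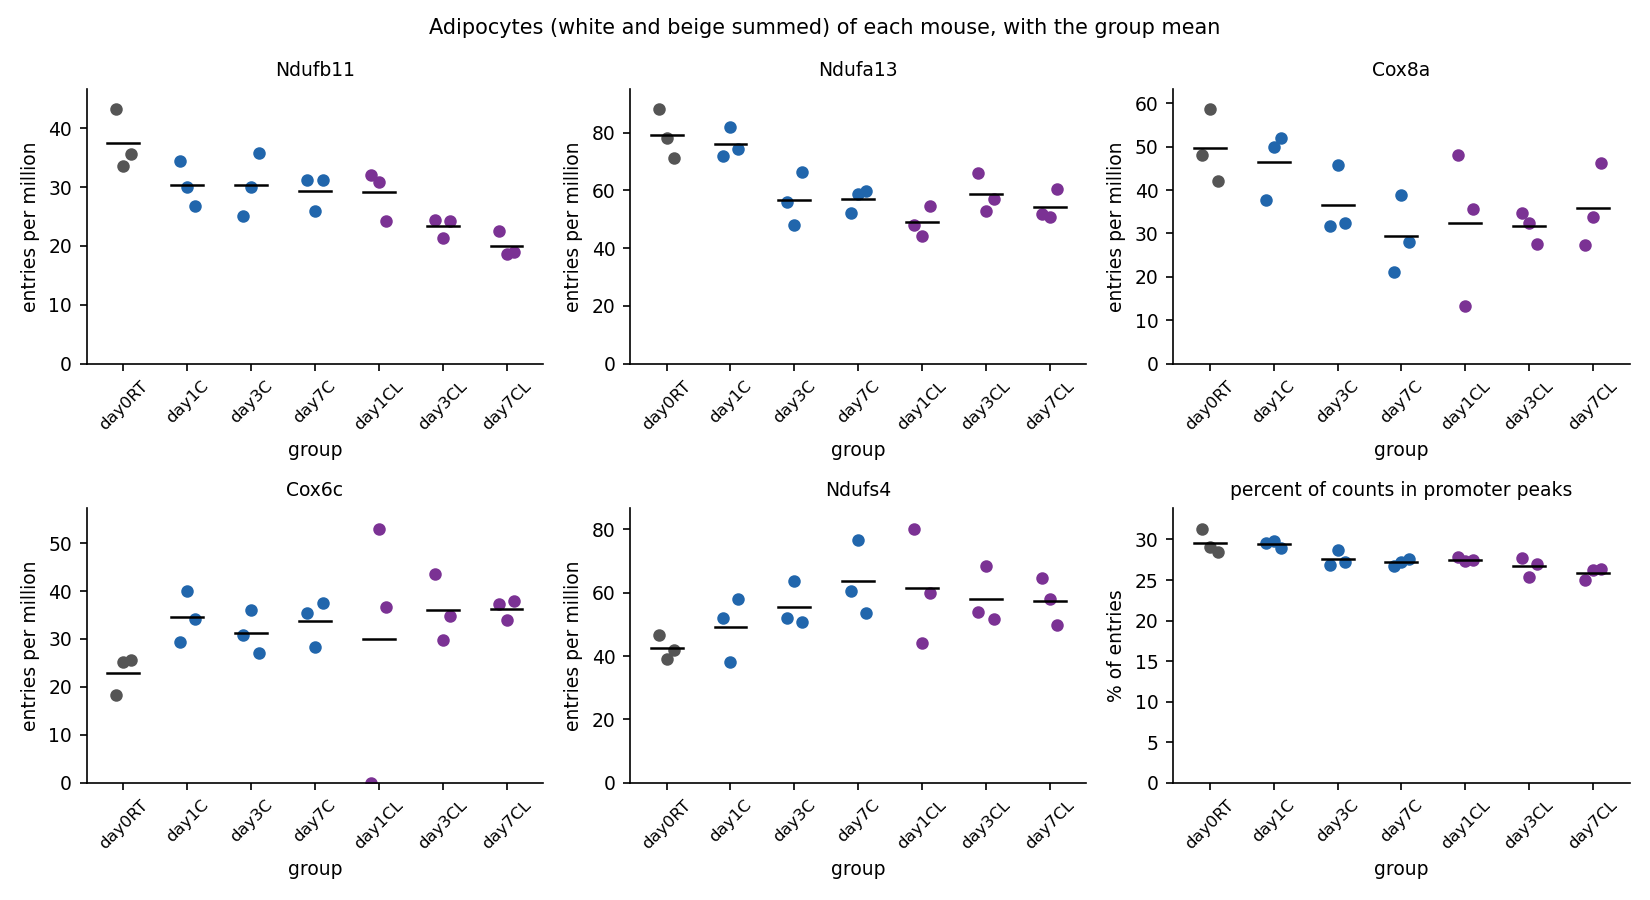
CPM in the summed white and beige adipocytes of each mouse, by group, for the 5 members Ndufb11, Ndufa13, Cox8a, Cox6c and Ndufs4, and the percent of counts in promoter peaks. Points are mice (3 per group; grey room temperature, blue cold, purple CL) and lines are group means; Ndufb11 runs from 33.5 to 43.2 at day0RT to 18.6 to 22.5 at day7CL, and the promoter share from 28.4 to 31.3% to 25.0 to 26.4%.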

How the data were processed

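snATAC-seq of iWAT from 21 mice was read through a deposited matrix of 189598 peaks, per the labels mapped to mm10 with Bowtie2 and SAMtools, with MACS2 and Signac for peaks and cells. The authors made the values binary, so the deposited counts are numbers of nuclei with a read in a peak, and the authors filtered nuclei and doublets and named the 12 clusters. The 4 GEO samples are sequencing lanes that pool mice, so mouse, group and cluster came from the deposited metadata. The study states 3 independent batches and 3 mice per group, and the sources used here do not say which mouse was in which batch.

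Counts were summed per mouse and cluster (libraries of at least 10 nuclei), then per gene over peaks within 2 kb of its start or on its body, with GENCODE genes on the same build, chromosome lengths having been compared. Levels are CPM (entries per 1000000 entries of the library, with no TMM factor). Cell types were tested with edgeR 4.0.16 in R 4.3.3 (quasi-likelihood, TMM, filterByExpr with minimum counts of 10 and 15 in total) with group as covariate, treatments in 1 fit over 21 mice, and p-values were adjusted by Benjamini-Hochberg over all genes or peaks, with a threshold of 0.05. Fits were tested on simulated data. Libraries of a mouse share the mouse named in the metadata, and a fit with the mouse as a block was an alternative, beside DESeq2 1.42.0, total counts without TMM, no filter, nuclei with at least 2000 counts, libraries of at least 30 nuclei, promoter, gene body or unshared peaks, and leaving out groups or mice.

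Named genes were the isoform pairs, all called members where there were 12 or fewer and otherwise the 6 largest each way with a mean of at least 20 counts, and the 5 highest and lowest promoter levels. Further called members and genes of the other lists were added after their values were seen. The members and lists were chosen with earlier results of these data known. Sequences were read from GRCm38.p6 with pysam 0.24.0. The values of 1 member are not reported here, although it is included in the counts and medians.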

Additional observations from a re-analysis of the deposited data

Results flagged for a closer look

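Among 9 named members checked in the 10 libraries of the VSMC cluster, Atp5e, which encodes the epsilon subunit of the ATP synthase, had 1 library far from the others, at 203.8 CPM with the next highest at 116.4. This gap was 0.491 of the whole range. The library, from a day7CL mouse, held only 13 nuclei and 14720 counts, so its value rests on few entries. About 1 in 20 such groups would stand out by chance if the libraries were alike in depth. The libraries here held 10 to 57 nuclei, so that rate may be too low for them. The Atp5e difference of this cluster from white adipocytes was 0.71 on the log2 scale with all libraries. With libraries of at least 30 nuclei it was 0.46 and was not called (edgeR adjusted p = 0.35). That fit kept only 3 libraries of the cluster, so the lost call does not show the part of the 1 outlying library.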

How the results depend on the processing

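For beige against white adipocytes the 21 called members became 9 with promoter peaks alone and 7 with gene bodies alone, and 13 to 21 over the omission of each group. The 12 called peaks became 44 with no filter on low counts (7 higher, 37 lower, of 239 tested), and 5 to 14 over the omission of groups. For the VSMC cluster the 16 calls became 9 with promoter peaks alone, 4 with gene bodies alone and 9 with unshared peaks, and 8 to 17 over the omission of groups. For white adipocytes against B cells the 74 calls became 46, 9 and 44 in the same order, and 67 to 74 over the omission of groups. With nuclei of at least 2000 counts they became 52. Among treatments, DESeq2 and promoter peaks alone gave 0 for day7C, day3CL, day7CL and the 7 groups together. White adipocytes alone gave 0 for day7C, and for day7CL 3 members, all lower. Nuclei with at least 2000 counts gave 2 for day7C, 0 for day3CL and 1 for day7CL. Leaving out mice gave 0 to 1 for day7C, 0 to 4 for day3CL, 0 to 7 for day7CL and 0 to 5 for the 7 groups. The causes were not tested, beyond the fewer genes that fewer peaks leave. Cox6c reversed to -0.15 against B cells with unshared peaks, and Ndufa4, not called, to 0.0356 in beige adipocytes with nuclei of at least 2000 counts. Over the named members 669 alternative values kept direction and side of the threshold, 97 lost the call and 2 reversed. With the mouse as a block, which pairs the libraries of a mouse, 19 members and 14 peaks (12 higher and 2 lower) differed between beige and white adipocytes, with 12 in the VSMC cluster and 68 against B cells, and of the named calls those of Ndufb9 and the Atp5j2 peak were lost. For treatments a replicate block on the mouse number, chosen after seeing the data, gave 1 call for day7C, 2 for day3CL, 3 for day7CL and 4 across the 7 groups. Mice of the same number correlated over 0.1 in their deviations from the group means in 1 of 63 pairs, and mice of different numbers in 2 of 126. Both medians were near 0 (0.002 and 0.0004), so this check cannot decide whether the numbers mark the batches. The numbers were not taken to mark them, and a batch shared across groups was not tested. Depth limits the small clusters most, since 1 entry in the smallest beige library is 51.2 CPM.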

Other observations

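Other gene families that all cells use had smaller median changes between beige and white adipocytes than the members. These families were chosen after values were seen. Of 84 cytosolic ribosomal protein genes 4 were higher in beige adipocytes and 2 lower, with a median log2 change of 0.04, of 37 proteasome genes 3 were higher and 3 lower (-0.01), and of 73 mitochondrial ribosomal protein genes 11 were higher and 2 lower (0.09), against 21 and 0 of 82 respiratory chain members (0.21). Of all genes tested 13.6% were higher and 15.2% lower, and the share of mitochondrial ribosomal genes that were higher lies near the former. Against B cells, in contrast, the cytosolic ribosomal genes were lower in white adipocytes in 79 of 84 cases (median -0.89), the proteasome genes in 29 of 38 (-0.52) and the mitochondrial ribosomal genes in 59 of 73 (-0.59), near the respiratory chain median of -0.61. There 53.6% of all genes were lower.

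The share of other respiratory chain genes called in the VSMC cluster lay below that of all genes and is no result about the list. In the VSMC cluster 5 of 43 other respiratory chain genes were higher than in white adipocytes and 4 lower, against 15.2% and 28.8% of all genes, among them Coa7 (0.86 ± 0.20 on the log2 scale) and Sdhc (0.71 ± 0.24), while Cox10, which acts in the synthesis of heme a, was at -1.09 ± 0.20. Of 15 regulators 5 were higher and 4 lower, with Ppargc1a at 0.91 ± 0.16 and Esrrg, a nuclear receptor of respiratory genes, at -1.12 ± 0.17. Against B cells, white adipocytes had 6 of 42 other chain genes higher and 28 lower, against 38.6% and 53.6% of all genes, and 8 of 15 regulators higher and 7 lower, led by Esrrb (4.50 ± 0.15) and Ppara (2.78 ± 0.08) and, on the other side, Tfam (-2.18 ± 0.07).

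Within adipocytes Cox10 was called in 3 treatment comparisons with day0RT, at 0.75 ± 0.14 for day7C, 0.69 ± 0.13 for day3CL and 0.82 ± 0.13 for day7CL (edgeR adjusted p = 0.00012, 0.0003 and 9.7e-06). Ucp1 was higher at day7C (1.70 ± 0.41), as was Esrrb (0.79 ± 0.18). Tfb2m rose at day3CL (0.54 ± 0.15) and Ppargc1a at day7CL (0.45 ± 0.15), where Gabpb1 fell by 0.67 ± 0.19 and Cox15 by 0.62 ± 0.19. With promoter peaks alone, Cox10, Gabpb1 and Cox15 were not called, Esrrb and Ppargc1a were not tested, and Ucp1 and Tfb2m were. DESeq2 called Cox10 in all 3 comparisons and none of the others. In white nuclei alone Cox10, Tfb2m and Ppargc1a were still called. Esrrb (0.55, edgeR adjusted p = 0.151), Gabpb1 (-0.56, adjusted p = 0.070) and Cox15 (-0.59, adjusted p = 0.065) were not, and Ucp1 was not tested there. Of 43 other chain genes, 2 were called at day7C against 5.04% of all genes and 1 at day3CL against 4.77%. At day7CL 1 was higher and 1 lower, against 7.78% of all genes. Of 15 regulators 1 was called at day7C, 1 at day3CL, and at day7CL 1 was higher and 1 lower. These counts are not a result about the lists. The comparisons named here share the 3 day0RT mice.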
